A study of Homo sapiens with 4 samples.

Results

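The mitochondrial ribosome of HCT116 cells was followed through the 74 genes whose transcript cluster carried exactly 1 symbol of the form MRPL or MRPS plus a number. Pseudogene and antisense symbols were left out, and the cluster with the highest mean stood for a gene that had several. These were 74 of 22411 genes with such a cluster, 48 with a large subunit symbol (MRPL) and 26 with a small subunit symbol (MRPS). RefSeq lists 77 protein-coding genes with these symbols. MRPL30, MRPS6 and MRPS16 were covered by clusters that carry another gene's symbol as well, and were not analysed here.

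HCT116 is an established human colon cancer cell line. Both groups were transfected with 50 nM siRNA by a lipid reagent for 48 h, the first with an siRNA against CTNNB1, which encodes beta-catenin, and the second with a control siRNA. Each group had 2 biological replicates with 1 array each, so there were 4 arrays in all. The labels call the replicates biological but do not say whether they were separate cultures, so p-values measure only the spread between these arrays.

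Mitochondrial ribosomes translate the few mRNAs of the mitochondrial genome, all of which encode subunits of the respiratory chain and ATP synthase. All of their proteins are encoded in the nucleus, made in the cytosol and imported. Part of the proteins have counterparts in bacterial ribosomes, and the rest were added in the mitochondrial lineage. Symbols follow the subunit in which a protein was first placed, and MRPS30 and MRPS18A were later found in the large subunit.

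Levels are the deposited log2 values, and a fold change is the mean of the CTNNB1 siRNA arrays minus the mean of the control siRNA arrays on that scale. CTNNB1 itself stood at 6.50 and 6.65 on the CTNNB1 siRNA arrays, against 10.06 and 10.20 on the control siRNA arrays. The knockdown amounted to a log2 fold change of -3.555 (SE 0.10, adjusted p of 0.00013 in limma). Array medians lay between 4.58 and 4.66. Across tested genes the correlation was 0.997 within both groups and 0.977 to 0.980 between them, a description of these arrays only. Of the 7 epithelial markers, EPCAM, KRT8, KRT18 and KRT19 lay at or above percentile 93.3 of all genes, while VIL1 and CDX2 lay below the level filter, as did PTPRC of leukocytes and PECAM1 of endothelium. COL1A1 of fibroblasts lay at percentile 49.0 and was not called. Of the 5 epithelial markers tested 4 were called higher with CTNNB1 siRNA, CDH1 the most, at a mean of 9.27 against 7.00 with control siRNA, and their part in the results was not tested. Of 15679 genes tested, 30.3% were called, that is, had an adjusted p under 0.05 in limma after Benjamini-Hochberg adjustment.

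Most mitochondrial ribosomal protein genes were not called, and a small number had larger changes. Of the 73 members above the level filter, 14 were lower, 4 were higher and 55 were not called. The share called was 24.7%, against 30.3% of all tested genes. Without a level filter 17 of 74 members were called, against 19.9% of all 22411 genes, so how the shares compare depends on the filter. With the filter, lower members made up 19.2%, against 16.1% of all tested genes, and higher members 5.48%, against 14.2%. The median log2 fold change of the members was -0.085, against -0.015 over all tested genes, and the median size of a change was 0.18 in both. Changes smaller than 0.2 log2 units were seen for 41 members (56.2%), against 53.0% of all tested genes. CTNNB1 siRNA and control siRNA values lay fully apart for 55 members (75.3%), against 63.0% of all tested genes. MRPL54 lay below the filter of 4.29 log2 units, at 4.06 and 3.96 with CTNNB1 siRNA and at 3.96 and 4.04 with control siRNA, and was not tested. Leaving out any 1 of the 4 arrays left no member called in limma, and no gene of the 15679. All 18 called members then kept their direction. In such bulk samples a change in part of the cells and a change in all cells cannot be told apart.

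**Figure D1:**
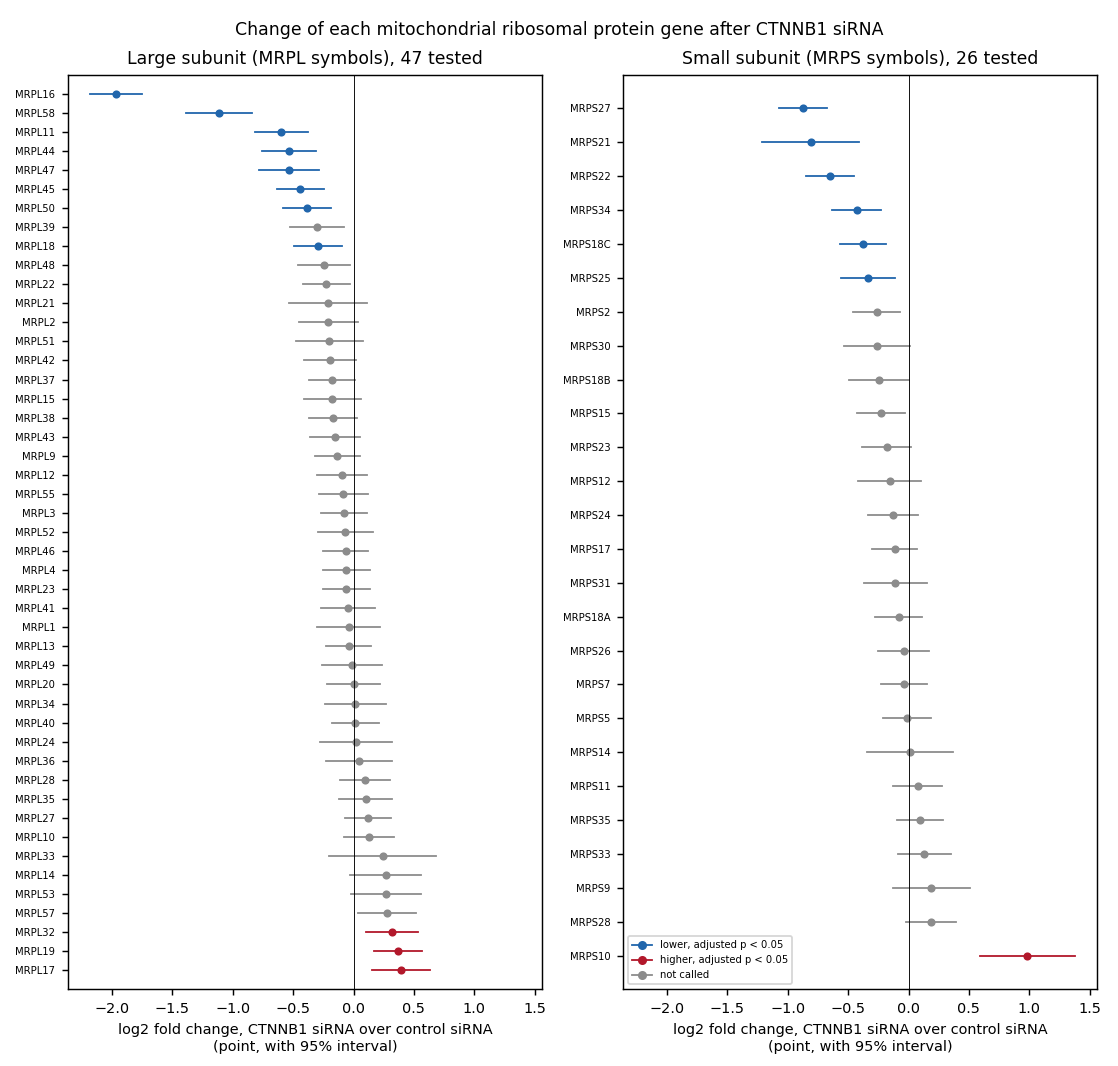
Change in log2 units, CTNNB1 siRNA minus control siRNA (x axis), for each of the 47 large subunit and 26 small subunit genes tested, with limma's 95% interval, in order of the change. Blue genes were lower and red genes higher at an adjusted p under 0.05, and grey genes were not called. MRPL16 and MRPL58 lie far to the left and MRPS10 far to the right of a body of genes near 0.

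Both subunits held lower and higher genes. Among 47 large subunit genes 8 were lower and 3 higher, with a median log2 fold change of -0.07 and a middle range (first to last quartile) of -0.21 to 0.0325. Among 26 small subunit genes 6 were lower and 1 was higher, with a median of -0.1225 and a middle range of -0.26 to 0.0038. The share called was 23.4% of the large and 26.9% of the small subunit genes, against 30.3% of all tested genes. The large minus small difference of these medians was 0.0525 log2 units. It lay between 0.0275 and 0.0875 with 1 array left out. The spread between replicate arrays was taken on another measure, each array's median deviation from the gene means over all arrays. The large minus small difference of that measure had an SD of 0.0285 between replicates. Large and small subunit values were -0.035 and -0.0788, then -0.045 and -0.0337, on the CTNNB1 siRNA arrays. On the control siRNA arrays they were 0.045 and 0.05, then 0.065 and 0.085. This SD does not measure the spread of the 0.0525. Placing proteins by their structural position, with MRPS30 and MRPS18A counted in the large subunit and the proteins under other names added, gave medians of -0.075 for 50 large and -0.115 for 27 small subunit genes. No p is given for the difference, since it is a score over chosen genes.

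**Figure D2:**
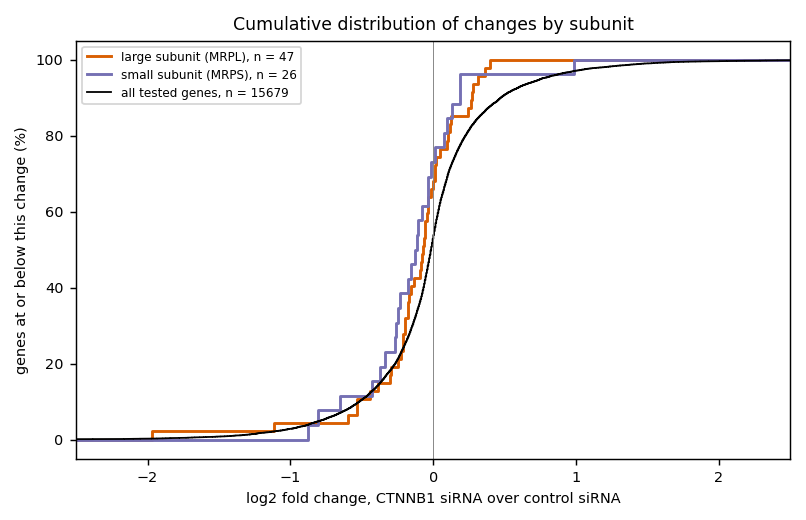
Share of genes (y axis, percent) whose log2 change, CTNNB1 siRNA minus control siRNA, is at or below the value on the x axis, for 47 large subunit genes, 26 small subunit genes and all 15679 tested genes. Both subunit curves lie left of the curve of all genes through the middle of the plot, and the small subunit curve has 1 step at 0.985, which is MRPS10.

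Promoter windows were searched for short motifs. RefSeq promoter windows of assembly GRCh38.p14, from 250 bases before to 50 bases after each gene's start, matched 65 of the 73 tested members, the 18 called ones included. They were searched on both strands for the letters of an ETS family motif (CCGGAAG), of a YY1 motif (AAGATGGC), of an NRF1 motif (GCGCA, any base, GCGC), of an E-box (CACGTG) and of a TCF/LEF motif (CTTTGAT), the family that recruits beta-catenin. The ETS letters stood in 26 windows (40.0%), against 17.8% of 10485 windows of tested protein-coding genes. The YY1 letters stood in 20 (30.8%, against 5.01%). Related lists also lay above the share of all tested genes. ETS letters stood in 34.0% of 47 cytosolic ribosomal protein windows and 27.6% of 58 windows of nuclear respiratory chain and ATP synthase genes, and YY1 letters in 10.6% and 17.2% of the same windows. Whether the lists differ was not tested. The ETS and YY1 motifs can share bases, but no matches overlapped here. The NRF1 letters stood in 7 windows (10.8%, against 10.9%), the E-box in 6 (9.23%, against 9.78%) and the TCF/LEF letters in none, against 1.51% of tested genes. A match is a description of letters, and no match says only that these letters are not in this window.

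**Figure D3:**
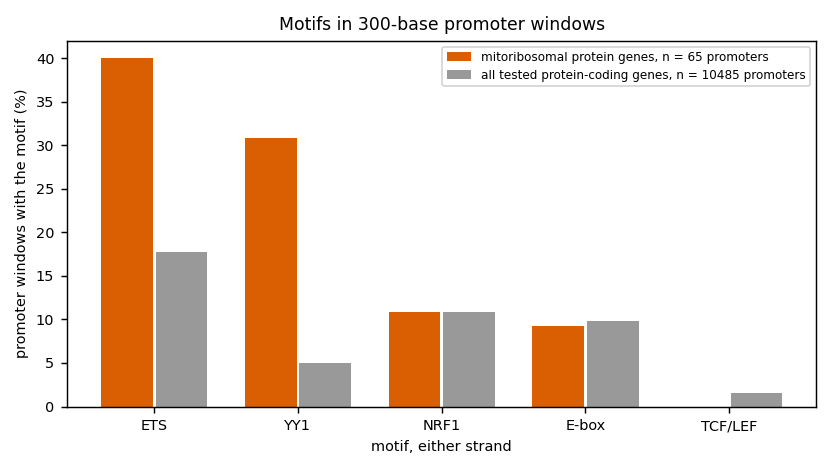
Percent of promoter windows (y axis) that hold each motif on either strand, for 65 mitochondrial ribosomal protein genes (left bars) and for 10485 tested protein-coding genes (right bars). ETS and YY1 letters are more frequent among the mitochondrial ribosomal genes, at 40.0% and 30.8%, and the other 3 motifs are not.

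Windows are printed here for MRPL16 and MRPL58, which fell the most, for MRPS22 and MRPS34, lower genes with several ETS matches, and for MRPL17 and MRPS10, which rose. Each gives 100 bases before the start and the start base itself, 5′ to 3′ on the gene's strand, with ETS and NRF1 letters in capitals. MRPL16 lies on the minus strand at chr11:59810778-59810878, MRPL58 on the plus strand at chr17:75012570-75012670 and MRPS22 on the plus strand at chr3:139343894-139343994. MRPS34 lies on the minus strand at chr16:1773134-1773234, MRPL17 on the minus strand at chr11:6683340-6683440 and MRPS10 on the minus strand at chr6:42217861-42217961.
MRPL16: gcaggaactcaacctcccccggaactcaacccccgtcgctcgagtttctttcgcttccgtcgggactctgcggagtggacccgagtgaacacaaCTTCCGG
MRPL58: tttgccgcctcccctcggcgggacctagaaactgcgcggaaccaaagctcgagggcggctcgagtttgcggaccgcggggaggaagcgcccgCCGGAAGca
MRPS22: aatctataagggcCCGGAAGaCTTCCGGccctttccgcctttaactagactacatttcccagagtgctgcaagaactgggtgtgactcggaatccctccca
MRPS34: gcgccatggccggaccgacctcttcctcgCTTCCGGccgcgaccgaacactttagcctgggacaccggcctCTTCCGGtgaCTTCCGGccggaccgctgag
MRPL17: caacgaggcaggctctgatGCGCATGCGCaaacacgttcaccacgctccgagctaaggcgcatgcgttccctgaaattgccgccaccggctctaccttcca
MRPS10: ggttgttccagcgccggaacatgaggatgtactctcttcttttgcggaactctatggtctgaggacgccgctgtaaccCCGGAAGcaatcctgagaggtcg

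In the printed stretches of MRPL16 and MRPL58 the ETS letters end at or just before the start base. In that of MRPS22 they form a back-to-back pair, and in that of MRPS34 they occur 3 times. Outside the printed stretches MRPS22 has 1 more match, at positions 6 to 12 with the start base as 1. MRPL58 also has 1 more, at -193 to -187. MRPS10, the gene with the largest rise, also holds ETS letters shortly before its start. MRPL17 holds the NRF1 letters, here a run that reads the same on both strands. Among the members, 20 of 36 ETS matches began within the 50 bases before the start, and 15 of 21 YY1 matches lay after it, all on the gene's own strand. ETS letters stood in 7 of 14 lower members, 1 of 4 higher members and 18 of 47 members not called. Over all tested genes they stood in 22.1% of lower, 15.8% of higher and 17.0% of uncalled genes. YY1 letters stood in 4 of 14 lower, 2 of 4 higher and 14 of 47 uncalled members. Over all tested genes they stood in 5.52% of lower, 5.32% of higher and 4.78% of uncalled genes. Whether a motif goes with the direction of change was not tested.

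The largest change in the large subunit was that of MRPL16, a protein with a bacterial counterpart that lies close to the peptidyl transferase centre. Its level was 6.06 and 6.00 on the CTNNB1 siRNA arrays, against 7.93 and 8.07 on the control siRNA arrays. The groups lay far apart, and MRPL16 fell by 1.97 (SE 0.09, adjusted p of 0.00027 in limma), a 3.92-fold difference on the deposited scale. This was the 40th lowest change among the 15679 tested genes. MRPL58, also known as ICT1, is a peptidyl-tRNA hydrolase that became a fixed part of the large subunit. It stood at 9.54 and 9.73 with CTNNB1 siRNA, against 10.65 and 10.85 with control siRNA. It fell by 1.115 (SE 0.11, adjusted p of 0.0016 in limma), a 2.17-fold difference. MRPL16 and MRPL58 were the only members of the 73 with a called change of at least 2-fold (2.74%, against 5.71% of all tested genes).

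The other lower large subunit genes changed less. MRPL11, which forms the base of the stalk that recruits elongation factors, stood at 6.27 and 6.12 with CTNNB1 siRNA, against 6.77 and 6.82 with control siRNA, and fell by 0.60 (SE 0.09, adjusted p of 0.0052 in limma). MRPL45, which holds the ribosome at the inner membrane, stood at 11.31 and 11.39 with CTNNB1 siRNA, against 11.77 and 11.81 with control siRNA. MRPL47, which lies near the tunnel exit, stood at 10.07 and 10.15 with CTNNB1 siRNA, against 10.75 and 10.54 with control siRNA. Both fell, MRPL45 at -0.44 (SE 0.08) and MRPL47 at -0.535 (SE 0.10), with adjusted p-values of 0.0103 and 0.0118 in limma. MRPL44, a protein with an RNase III-like fold, stood at 9.00 and 9.16 with CTNNB1 siRNA, against 9.65 and 9.58 with control siRNA, and fell by 0.535 (SE 0.09, adjusted p of 0.0085 in limma). MRPL50 and MRPL18 completed the group, with log2 fold changes of -0.385 (SE 0.08) and -0.295 (SE 0.08). MRPL18 had an adjusted p of 0.038 in limma, and the call was lost after another quantile normalization (0.0605), after centring of each array (0.0687) and with an intensity trend (0.0512).

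The lower small subunit genes were led by MRPS27, a pentatricopeptide repeat protein without a bacterial counterpart. Its level was 9.28 and 9.34 on the CTNNB1 siRNA arrays, against 10.22 and 10.15 on the control siRNA arrays, and it fell by 0.875 (SE 0.08, adjusted p of 0.0012 in limma). MRPS21, which has a bacterial counterpart, varied more between replicates. It stood at 9.49 and 9.88 with CTNNB1 siRNA, against 10.64 and 10.35 with control siRNA, and fell by 0.81 (SE 0.16, adjusted p of 0.0149 in limma). MRPS22, a mitochondria-specific protein, stood at 7.02 and 7.06 with CTNNB1 siRNA, against 7.74 and 7.64 with control siRNA, and fell by 0.65 (SE 0.08, adjusted p of 0.0031 in limma). MRPS34, also specific to mitochondria, stood at 9.11 and 9.21 with CTNNB1 siRNA, against 9.62 and 9.56 with control siRNA, and fell by 0.43 (SE 0.08, adjusted p of 0.0127 in limma). The groups did not overlap in these 4 genes, which was a condition for naming them in full. The same held for 63.0% of all tested genes. MRPS18C and MRPS25 were lower by smaller amounts, with log2 fold changes of -0.375 (SE 0.08) and -0.335 (SE 0.09), and the call of MRPS25 was lost after centring of each array (adjusted p of 0.066 in limma).

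MRPS10 stood out as the member with the largest rise. It has a bacterial counterpart in the small subunit, and its level was 11.67 and 12.00 on the CTNNB1 siRNA arrays, against 10.68 and 11.02 on the control siRNA arrays. It rose by 0.985 log2 units (SE 0.16, adjusted p of 0.0073 in limma), a 1.98-fold difference. Replicates differed about equally in both groups. With any 1 array left out the change lay between 0.815 and 1.155. The other 3 that rose belong to the large subunit and have bacterial counterparts. MRPL17 stood at 7.93 and 8.05 with CTNNB1 siRNA, against 7.51 and 7.68 with control siRNA, and rose by 0.395 (SE 0.10, adjusted p of 0.0288 in limma, 0.0531 after centring of each array). MRPL19 stood at 8.51 and 8.59 with CTNNB1 siRNA, against 8.16 and 8.21 with control siRNA, and rose by 0.365 (SE 0.08, adjusted p of 0.0196 in limma). MRPL32, which is cut by a mitochondrial protease before it is built into the ribosome, stood at 8.13 and 8.02 with CTNNB1 siRNA, against 7.71 and 7.81 with control siRNA. MRPL32 rose by 0.315 (SE 0.09, adjusted p of 0.042 in limma, 0.0542 without a level filter). Together with 6 of the lower genes, MRPS10 made up the 7 members with a called change of at least 1.5-fold (9.59%, against 15.7% of all tested genes).

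**Figure D4:**
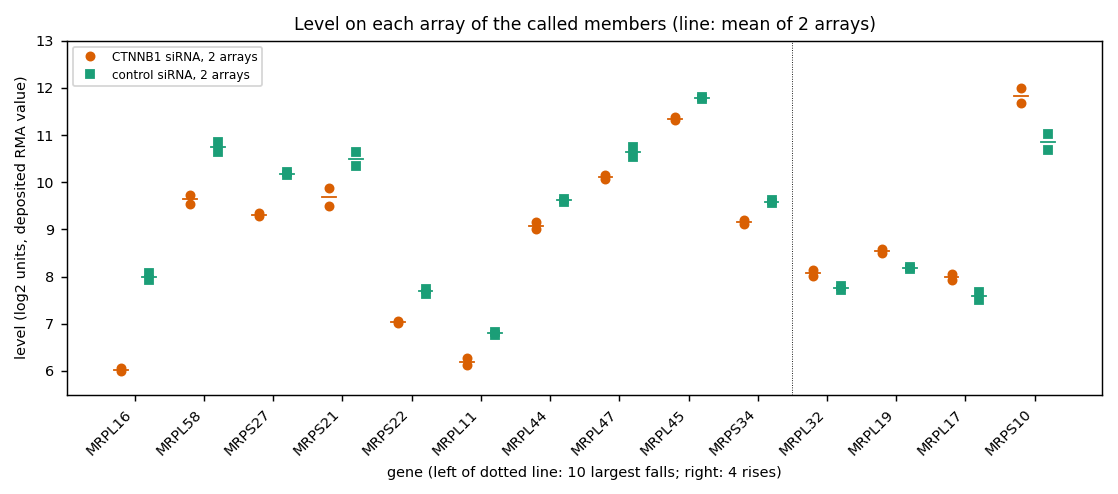
Level in log2 units (y axis) on each array for the 10 members with the largest falls and the 4 that rose, with the 2 CTNNB1 siRNA arrays on the left (circles) and the 2 control siRNA arrays on the right (squares) of each gene. Short lines are the means of 2 arrays. The 14 genes were picked among called members whose groups do not overlap, so the lack of overlap shown is by selection.

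By origin, both kinds of protein held lower members, while the 4 that rose all have bacterial counterparts. Of 43 tested genes with a bacterial counterpart, 6 were lower and 4 higher (23.3% called), with a median log2 fold change of -0.04. Of 34 tested mitochondria-specific genes, 8 were lower and none higher (23.5% called), with a median of -0.175. Both shares lay below the 30.3% of all tested genes, of which 16.1% were lower and 14.2% higher. The second count includes DAP3, PTCD3, CHCHD1 and GADD45GIP1, proteins of this ribosome whose symbols do not follow the MRP form. None of these 4 was called, and their log2 fold changes were 0.28, -0.18, 0.06 and 0.005. At an unadjusted p under 0.05, 12 of the 34 mitochondria-specific and 13 of the 43 other genes passed in limma, against 6338 of all 15679 tested genes. Whether the origins differ was not tested.

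The members that were not called ranged from -0.305 for MRPL39 to 0.275 for MRPL57. For 54 of these 55 genes limma's 95% interval lay inside a 1.5-fold change in either direction, so larger changes lay outside the interval. The exception was MRPL33, whose interval reached 0.68, and whose CTNNB1 siRNA arrays differed most, at 6.58 and 7.11, against 6.66 and 6.55 with control siRNA. Its log2 fold change was 0.24, and -0.025 without CTNNB1 siRNA replicate 2. MRPL39 and MRPS2 lay nearest the threshold, with adjusted p-values of 0.0523 and 0.0544 in limma. MRPL12, a stalk protein that has also been described as a partner of the mitochondrial RNA polymerase, stood at 7.11 and 7.17 with CTNNB1 siRNA, against 7.18 and 7.29 with control siRNA, a log2 fold change of -0.095 (95% interval -0.30 to 0.11).

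The MRPS18 paralogs share a name but sit in different places of the ribosome. MRPS18C, the small subunit protein with the bacterial counterpart, stood at 6.58 and 6.52 with CTNNB1 siRNA, against 6.91 and 6.94 with control siRNA, and was called lower (adjusted p of 0.0161 in limma). MRPS18B, also of the small subunit, stood at 9.43 and 9.40 with CTNNB1 siRNA, against 9.77 and 9.55 with control siRNA, and was not called at -0.245 (SE 0.10). Its 7 clusters, most of them on alternative sequences of the major histocompatibility region, gave between -0.245 and -0.23, and 6 of them had identical values. MRPS18A, of the large subunit, stood at 6.98 on both CTNNB1 siRNA arrays, against 7.10 and 7.02 on the control siRNA arrays, and was not called. The differences between the paralogs were not tested. MRPS30, the other large subunit protein with a small subunit symbol, stood at 10.96 and 11.19 with CTNNB1 siRNA, against 11.26 and 11.41 with control siRNA, and was not called (adjusted p of 0.141 in limma). KGD4, once named MRPS36 and since assigned to the oxoglutarate dehydrogenase complex, had a log2 fold change of 0.04 (SE 0.10).

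An array may pick up near-identical pseudogene copies, and this was not tested. The cluster of MRPL45P2 stood at 9.63 and 9.61 with CTNNB1 siRNA, against 10.02 and 9.74 with control siRNA. At a log2 fold change of -0.26 it was not called (adjusted p of 0.145 in limma), beside -0.44 for MRPL45, which was called. The cluster of MRPS31P5 had -0.42 (adjusted p of 0.0185 in limma) beside -0.11 for MRPS31, which was not called. MRPS14 had 2 clusters, with log2 fold changes of 0.01 and 0.275.

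Genes of the machinery around the ribosome were counted in the same fit. Of 27 tested assembly and rRNA modification factors, 10 were lower, 2 higher and 15 not called (44.4% called, against 30.3% of all tested genes), with a median of -0.195. The GTPases GTPBP10 and NOA1 fell, with log2 fold changes of -0.79 (SE 0.10) and -0.745 (SE 0.10), as did the rRNA methyltransferase MRM2 at -0.63 (SE 0.08) and the assembly factor RCC1L at -0.585 (SE 0.08). Of 15 tested translation factors and mRNA-binding partners, 5 were lower and 1 higher (40.0% called), with a median of -0.22. RMND1, which anchors these ribosomes at the inner membrane, stood at 7.80 and 7.86 with CTNNB1 siRNA, against 8.47 and 8.46 with control siRNA, and fell by 0.635 (SE 0.08). LRPPRC, which stabilises mitochondrial mRNAs, fell by 0.59 (SE 0.08). The release factor relative MTRFR and the methionyl-tRNA formyltransferase MTFMT also fell, at -0.56 (SE 0.09) and -0.535 (SE 0.12). Of 16 tested mitochondrial aminoacyl-tRNA synthetases 4 were lower and none higher (25.0% called), with a median of -0.125. These 4 were HARS2, NARS2, TARS2 and FARS2, at -0.985, -0.95, -0.55 and -0.53.

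Of 11 tested genes of mtDNA maintenance and transcription, 3 were lower and none higher (27.3% called, against 30.3% of all tested genes), with a median of -0.19. TFAM, which packages mitochondrial DNA and starts its transcription, stood at 8.57 and 8.90 with CTNNB1 siRNA, against 9.61 and 9.59 with control siRNA, and fell by 0.865 (SE 0.12, adjusted p of 0.0048 in limma). The helicase gene TWNK was lower at -0.79 (SE 0.11), as was the termination factor gene MTERF1 at -0.40 (SE 0.09). Of 7 tested nuclear regulators 2 were lower and none higher (28.6% called, again near the 30.3% of all tested genes), MYC at -0.79 (SE 0.10) and GABPB1, a subunit of the factor GABP that binds ETS motifs, at -0.59 (SE 0.09). The DNA-binding subunit GABPA had 0.14 (SE 0.09) and was not called, and neither was YY1 at 0.07 (SE 0.08), named here because its motif was searched.

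Of 72 tested nuclear genes for respiratory chain and ATP synthase subunits, 12 were lower and 6 higher (25.0% called, against 30.3% of all tested genes), with a median of -0.0975. Of 53 tested cytosolic ribosomal protein genes 5 were lower and none higher (9.43% called, against the same 30.3%), with a median of -0.12. Whether these lists differ from the mitochondrial ribosomal genes was not tested.

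**Figure D5:**
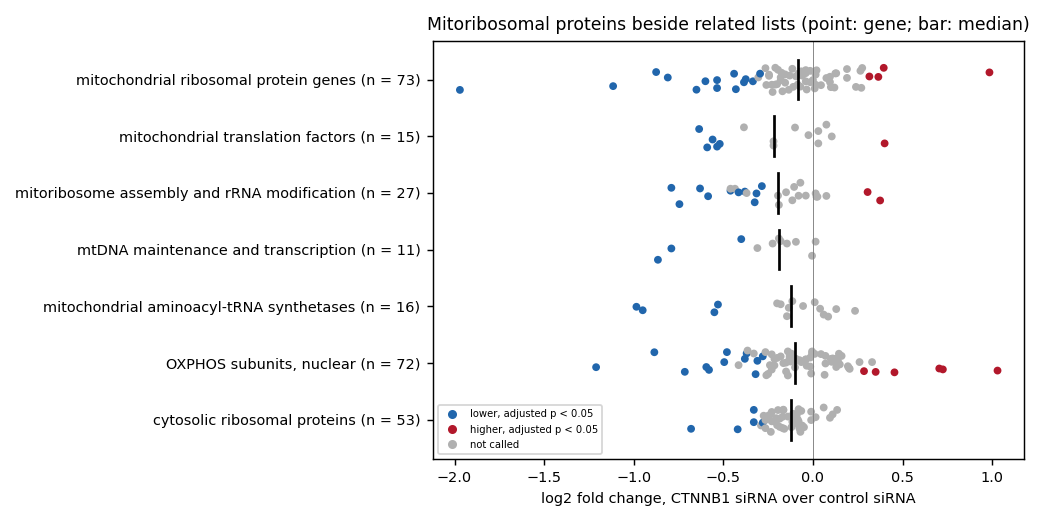
Change in log2 units, CTNNB1 siRNA minus control siRNA (x axis), for every tested gene of the mitochondrial ribosomal list and 6 related lists, 1 point per gene, with the median as a black bar. Blue points were lower and red points higher at an adjusted p under 0.05, and the widest range among these 7 lists is that of the mitochondrial ribosomal genes, from -1.97 to 0.985.

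For 20 members another protein-coding gene starts on the opposite strand within 1000 bases, and 18 of these neighbours were tested. MRPL46 and MRPS11, both members, are each other's neighbour, so their pair is counted from both sides, and neither was called. Of the tested neighbours 6 were called, a share near the 30.3% of all tested genes, so the count is no result about the members. In 2 pairs both genes were called. MRPL32 and its neighbour PSMA2, a proteasome subunit gene, rose by 0.315 and 0.335 (SE 0.09 each), and MRPL50 and the zinc finger gene ZNF189 fell, at -0.385 and -0.32 (SE 0.08 each). In several other pairs only 1 gene was called. MRPS27 fell by 0.875 while its neighbour PTCD2 had -0.205 (adjusted p of 0.189 in limma). The DNA repair gene EME1 fell by 0.795 beside MRPL27 at 0.12, and the kinetochore gene SKA3 fell by 0.83 beside MRPL57 at 0.275. The genes of these pairs were named after their values were seen, and differences within pairs were not tested.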

How the data were processed

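Per the labels' protocols, biotin-labelled cDNA from total RNA was hybridised to whole-transcript arrays. The authors deposited log2 levels per transcript cluster, and the submitters' processing notes name Affymetrix Expression Console and RMA. Tool versions, RMA variant and genome build: not given in the sources used here. Array number limits precision.

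The platform annotation named 23781 of 67528 clusters with 1 symbol, and symbols were updated through RefSeq (GRCh38.p14). Genes with a mean above the 30th percentile were tested with limma 3.58.1 in R 4.3.3 (lmFit, eBayes, no trend, no block, 5.66 moderated degrees of freedom), adjusted over all 15679 genes, 2-sided, threshold 0.05. A design of 2 against 2 cannot go below p = 0.33 in an exact permutation test of a single gene, so limma's pooling of the spread carries the calls. On simulated data of 15679 genes, 95.5% of 67 genes changed 1.5-fold were recovered. The noise was normal, with limma's moderated spreads taken as the true ones, and far fewer genes were changed than were called here. Recovery on the real arrays was not measured.

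Members and lists were chosen with earlier results of these data known. Named in full are the 10 largest falls and up to 10 rises among called members without overlap, MRPL12, MRPS30, the MRPS18 genes and MRPS36, and up to 4 genes per related list. Alternatives varied the filter, normalization, trend, cluster choice, subunit placement, replicate block and arrays. Figures were drawn with matplotlib 3.10.9.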

Additional observations from a re-analysis of the deposited data

How the results depend on the processing

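The counts of called members stayed within 1.5 times of 14 lower and 4 higher under 2 other level filters, another quantile normalization, centring of arrays, an intensity trend, the mean over a gene's clusters, structural placement and a replicate block, with 10 to 16 lower and 3 or 4 higher. With 1 array left out, both counts were 0, the large subunit median lay between -0.095 and -0.075, the small subunit median between -0.1675 and -0.105 and their difference between 0.0275 and 0.0875. Such fits leave 1 array in a group, which is assumed to vary like the other group. The CTNNB1 log2 fold change then lay between -3.63 and -3.48, no longer past the threshold. Another quantile normalization gave a large subunit median of -0.0575. The share of all genes called was 19.9% of 22411 without a level filter and 42.1% of 11201 with the filter at the 50th percentile. Beside these, 17 of 74 and 20 of 70 members were called. With the replicate number as a block, 13 of the 18 called members passed, 10 lower and 3 higher, MRPL18, MRPL32, MRPL47, MRPS21 and MRPS25 were lost, and the CTNNB1 log2 fold change was -3.555. Replicate differences of both groups correlated with r = 0.27 across genes, but the labels do not say that a number marks a shared culture, and 2 pairs cannot settle it. MRPL39 and MRPS2 were called with the filter at the 50th percentile (adjusted p of 0.0452 and 0.0483 in limma), and MRPS2 also after another quantile normalization (0.038). None of the 18 called members changed direction under these alternatives. Of the members not called 13 did, all of them with 1 array left out. Their log2 fold changes then lay between -0.165 and 0.085 for MRPL1, -0.095 and 0.135 for MRPL24, -0.025 and 0.505 for MRPL33, -0.075 and 0.105 for MRPL34, and -0.07 and 0.16 for MRPL36. They lay between -0.025 and 0.055 for MRPL40, -0.12 and 0.03 for MRPL41, -0.105 and 0.075 for MRPL49, and -0.16 and 0.02 for MRPL52. For MRPS5 they lay between -0.06 and 0.03, for MRPS14 between -0.18 and 0.20, for MRPS26 between -0.105 and 0.025 and for MRPS31 between -0.23 and 0.01. MRPL1 also had 0.025 after another quantile normalization. The causes were not tested.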
